A study of Mus musculus with 6 samples.

Results

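Serotonin is made, packed, taken up and broken down by a short chain of proteins, and 6 of their genes were followed here in small intestinal organoids given MMK-1: Tph1, Ddc, Slc18a1, Chgb, Slc6a4 and Maoa. They were chosen by name for their role, with earlier results of these data known, and all 6 were among the 21397 genes of the table. Organoids are miniature epithelia grown from crypts in a gel, here from the ileum of Fpr2f/f mice. These mice carry Fpr2 alleles flanked by recombination sites in both groups, and no Cre was named for these samples. The MMK-1 group, 3 libraries, was cultured with MMK-1, a synthetic peptide agonist of the G protein-coupled receptor FPR2, and the Control group, 3 libraries, with its vehicle, 0.1% DMSO, until day 5. The protocol of the samples gives the dose as 1 μmol/L while their treatment label gives 1 mmol/L, and the protocol's dose was used here. A figure legend of the study describes each sample as organoids of 3 mice. Nothing names separate mice for the libraries of a group, so p-values measure the spread between these samples, which may be technical. The comparison asks which transcripts of the epithelium differed with MMK-1. It holds no group that lacked FPR2 or was given an antagonist, so the part of the receptor was not tested.

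Most of the body's serotonin is made in the gut, in enterochromaffin cells, a type of enteroendocrine cell scattered through the epithelium. Tryptophan hydroxylase 1 (Tph1) hydroxylates tryptophan in the rate-limiting step, with tetrahydrobiopterin as cofactor, and aromatic L-amino acid decarboxylase (Ddc) turns the product into serotonin. A vesicular monoamine transporter (Slc18a1) loads serotonin into dense-core granules, whose matrix holds chromogranins such as Chgb. After release, the serotonin transporter (Slc6a4) carries serotonin into neighbouring absorptive cells, and monoamine oxidase A (Maoa) deaminates it. Ddc and Maoa are also known from enterocytes, so their transcripts are not particular to the cells that make serotonin.

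The values are FPKM, that is, fragments scaled by the length of the gene and by the total of the library. The number of fragments behind each value was recovered from the steps of the deposited values. Totals lay between 35512739 and 37537463 fragments per library. Differences were tested with limma on log2(FPKM + 1) among 10551 genes whose mean FPKM was 1 or more, and called where the p adjusted by Benjamini-Hochberg did not exceed 0.05. All 6 serotonin genes passed this level filter, with means above 1 FPKM in each group. The filter took the mean over all 6 libraries, so a gene could pass through the group where it was higher. Foxa2, Defa26 and the granule genes Scg3 and Scgn had Control means under 1 FPKM. Slc6a3 and Itgam had MMK-1 means under 1 FPKM. The counts of lists below include these genes. The fold changes below are on the log2(FPKM + 1) scale, MMK-1 minus Control, which understates the change of low genes such as Tph1 and Slc18a1. The groups differed widely, with 92.4% of the variance on the first principal component, and the second, with 4.48%, set MMK-1 replicate 3 apart from the other MMK-1 libraries. Over all genes tested the median log2 fold change was 0.13, and -0.0036 after the upper quartiles of the libraries were set equal. With MMK-1, 5118 genes (48.5%) were called higher and 2606 (24.7%) lower, against 3673 higher and 3905 lower after upper-quartile scaling.

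With MMK-1, 4 of the 6 serotonin genes fell (Ddc, Slc18a1, Slc6a4 and Maoa), Chgb rose, and Tph1 was not called. Of all genes tested 73.2% were called, 24.7% lower and 48.5% higher, so a call alone was common. Ddc and Maoa also fell at least 2-fold at an unadjusted p of at most 0.05, as did 3.65% of all genes tested, beside 3.39% that rose as far and 7.04% in either direction. The median log2 fold change of the 6 was -0.48, beside 0.13 over all genes. In 5 of the 6 the libraries of the groups did not overlap, 4 lower and 1 higher, where 76.8% of all genes tested were apart, 26.3% with MMK-1 lower and 50.5% with MMK-1 higher.

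**Figure D1:**
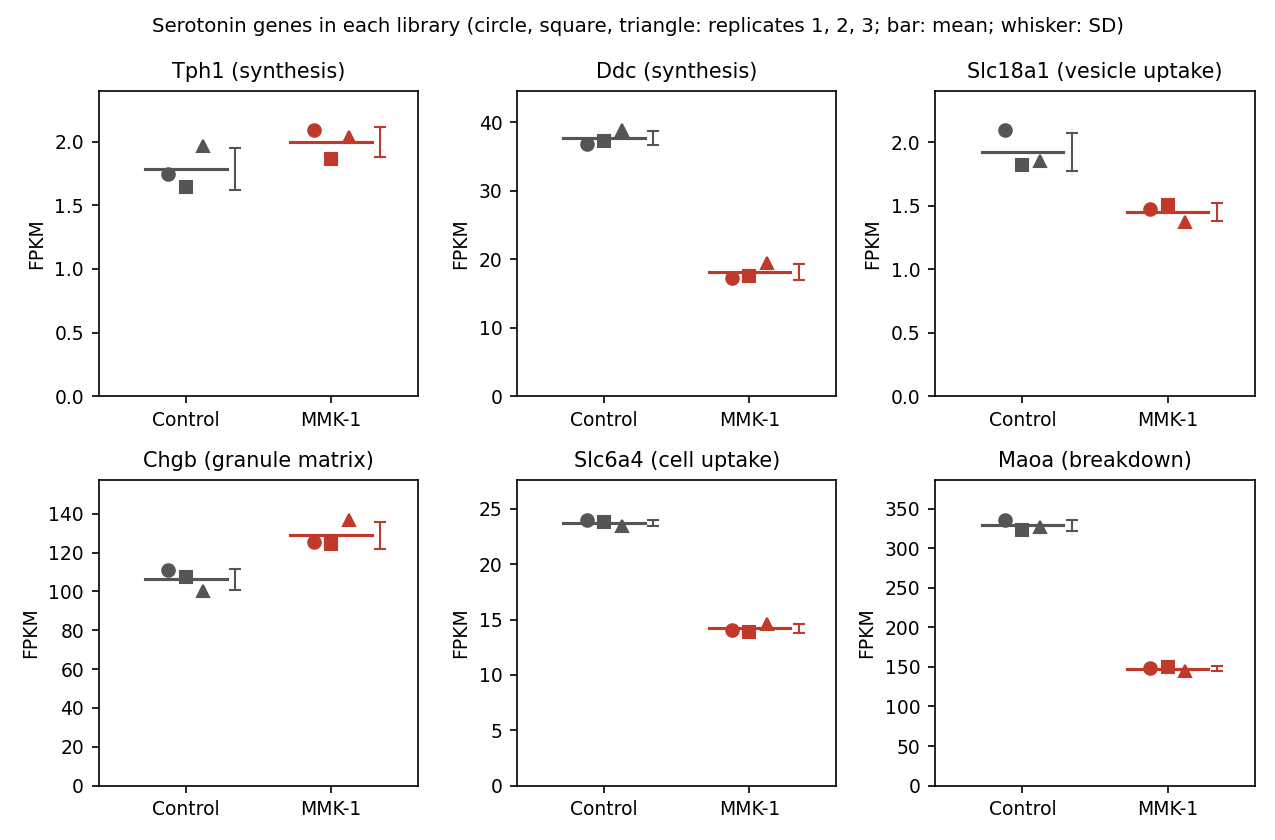
FPKM of the 6 serotonin genes in each library, 1 panel per gene with its own axis from 0, Control in grey and MMK-1 in red, with the group mean as a bar and the SD (n = 3) as a whisker. Ddc, Slc18a1, Slc6a4 and Maoa lie lower in every MMK-1 library than in every Control library, Chgb lies higher, and the groups of Tph1 overlap between 1.87 and 1.96 FPKM.

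The windows of 250 bases before the annotated starts of 4 genes are shown as the sequence context of the contrast between Tph1, which was not called, and Ddc, Slc6a4 and Maoa, which fell most. They come from RefSeq on GRCm38.p6, on the strand of the gene, and which start the organoids used was not measured. The table of windows held 5 of the 6 genes, with 7 starts in all; Slc18a1 was not matched. Capitals mark matches on either strand to CAGATG or CAGCTG, forms of the E-box that basic helix-loop-helix factors bind, to GGAAGT, which holds the core of ETS factor sites, or to TAATTA, a core of homeodomain sites. Tph1 has a start at chr7:46672538-46672787 (minus strand, 43.6% GC) and another at chr7:46667378-46667627 (58.8% GC). Ddc has starts at chr11:11898145-11898394 (minus strand, 40.8% GC) and chr11:11890409-11890658 (56.0% GC). The window of Slc6a4 is chr11:76998347-76998596 (plus strand, 64.8% GC) and that of Maoa is chrX:16619448-16619697 (plus strand, 56.8% GC).
Tph1, upstream start: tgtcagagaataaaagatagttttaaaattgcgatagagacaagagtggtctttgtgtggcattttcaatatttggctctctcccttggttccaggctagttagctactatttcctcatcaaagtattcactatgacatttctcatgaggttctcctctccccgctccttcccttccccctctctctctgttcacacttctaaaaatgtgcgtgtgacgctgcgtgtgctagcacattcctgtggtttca
Tph1, downstream start: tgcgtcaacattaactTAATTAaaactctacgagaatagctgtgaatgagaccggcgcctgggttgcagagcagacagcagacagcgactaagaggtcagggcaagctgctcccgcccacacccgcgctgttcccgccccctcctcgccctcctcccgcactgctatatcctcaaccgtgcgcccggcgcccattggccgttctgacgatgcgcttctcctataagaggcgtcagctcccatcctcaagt
Ddc, upstream start: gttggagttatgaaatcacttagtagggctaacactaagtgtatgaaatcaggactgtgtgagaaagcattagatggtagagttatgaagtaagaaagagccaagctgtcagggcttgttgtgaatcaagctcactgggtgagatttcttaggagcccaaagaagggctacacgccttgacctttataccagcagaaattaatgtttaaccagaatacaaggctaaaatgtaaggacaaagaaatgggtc
Ddc, downstream start: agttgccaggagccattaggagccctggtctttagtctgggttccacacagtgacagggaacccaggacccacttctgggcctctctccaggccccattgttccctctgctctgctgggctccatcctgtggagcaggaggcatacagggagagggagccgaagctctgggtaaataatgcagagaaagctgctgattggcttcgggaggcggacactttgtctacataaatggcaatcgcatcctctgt
Slc6a4: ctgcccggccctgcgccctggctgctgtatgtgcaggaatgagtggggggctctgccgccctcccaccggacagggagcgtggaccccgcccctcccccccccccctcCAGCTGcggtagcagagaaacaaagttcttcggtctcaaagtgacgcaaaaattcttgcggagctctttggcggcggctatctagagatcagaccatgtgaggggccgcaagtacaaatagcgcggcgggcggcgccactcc
Maoa: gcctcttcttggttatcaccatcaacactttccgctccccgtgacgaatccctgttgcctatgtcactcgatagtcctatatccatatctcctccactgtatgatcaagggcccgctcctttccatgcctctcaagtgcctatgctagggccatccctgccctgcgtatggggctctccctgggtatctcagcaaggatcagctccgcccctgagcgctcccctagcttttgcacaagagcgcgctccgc

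In these windows Slc6a4 held CAGCTG 142 bases before its start, and the downstream start of Tph1 held TAATTA 234 bases before it. The windows of Ddc, Maoa and Chgb (chr2:132781392-132781641, plus strand, 72.8% GC) held none of the 4 motifs. Of all 32851 windows of the table, 14.4% held CAGATG, 13.0% CAGCTG, 19.7% GGAAGT and 4.84% TAATTA, and the median GC content was 52.4%. A match of 6 letters is a description and not a site of binding.

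Among the genes of synthesis, Tph1 (NCBI gene 21990, GRCm38 chr7:46644641-46672537, minus strand) was expressed at a low level in every library. Its FPKM was 1.75, 1.64 and 1.96 in the Control libraries and 2.09, 1.87 and 2.04 with MMK-1, from 312 to 383 fragments a library. The groups overlapped, since Control replicate 3 lay above MMK-1 replicate 2. The means were 1.78 ± 0.16 FPKM and 2.00 ± 0.12 FPKM (SD, n = 3 each), and the log2 fold change was 0.11 with an SE of 0.065 (limma adjusted p = 0.167). Its 95% interval ran from -0.04 to 0.26, and changes within it could not be told from none with these libraries. Tph1 sat at the 47.4th percentile of the log2 fold changes of all genes tested and 0.03 below their median. After upper-quartile scaling its log2 fold change was 0.0033.

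Ddc (NCBI gene 13195, GRCm38 chr11:11814101-11898144, minus strand), the next enzyme of synthesis, had 36.8, 37.3 and 38.8 FPKM in the Control libraries and 17.3, 17.6 and 19.5 FPKM with MMK-1. Every MMK-1 library stood far below every Control library. The mean fell from 37.6 ± 1.03 to 18.1 ± 1.19 FPKM (SD, n = 3 each), 2.07-fold lower, with a log2 fold change of -1.01 (SE 0.053, limma adjusted p = 5.22e-07). Ddc lay close to the 2-fold mark. Without Control replicate 3, MMK-1 replicate 1 or MMK-1 replicate 2 its log2 fold change was -0.99, -0.98 and -0.99. These values were short of 2-fold on the log2(FPKM + 1) scale, and Ddc stayed called at a limma adjusted p of at most 1.1e-05. Ddc shares its locus with the antisense gene 1700042O10Rik, and whether the counting used strand is not given in the sources used here.

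The enzymes of the chain were also set against each other within each library. The ratio of Ddc to Tph1 FPKM was 21.1, 22.7 and 19.8 in the Control libraries and 8.31, 9.43 and 9.57 with MMK-1, a change of -1.22 in the mean log2 ratio. Such a ratio does not move with the scaling between libraries. The exact two-sided permutation p was 0.1, the smallest that 3 against 3 allows, and 0.114 after Benjamini-Hochberg adjustment over the 8 ratios computed, which were chosen after the values were seen.

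The cofactor tetrahydrobiopterin is made from GTP by GTP cyclohydrolase 1 (Gch1), which the protein of Gchfr restrains, and is recycled by Qdpr and the carbinolamine dehydratases Pcbd1 and Pcbd2. All 8 listed cofactor genes were tested, and 1 rose and 4 fell, with a median log2 fold change of -0.24. Gch1 had 5.28, 5.21 and 4.94 FPKM in the Control libraries and 11.2, 10.5 and 11.8 FPKM with MMK-1, and its log2 fold change was 0.99 (SE 0.054, limma adjusted p = 7.25e-07). Gchfr had 21.6, 22.7 and 25.5 FPKM against 8.77, 10.8 and 10.7 FPKM, a log2 fold change of -1.13 (SE 0.087, limma adjusted p = 5.37e-06). The groups stood apart in both genes, in opposite directions, and the mean ratio of Gch1 to Gchfr was 0.223 in the Control libraries and 1.11 with MMK-1. Pcbd2 and Qdpr fell by 0.60 and 0.48 on the log2 scale. Pts, Spr and Pcbd1 were not called, at -0.04, 0.06 and -0.14. After upper-quartile scaling these 3 were called lower too, Spr at -0.0936, so that 7 of the 8 were lower and Gch1 alone was higher, and Pcbd1 was also called lower without MMK-1 replicate 3 (-0.18) or without Control replicate 1 (-0.22).

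Tryptophan itself enters cells through amino acid transporters, and the list of these also held low-affinity amine carriers. Of 9 found, 7 were tested, and 1 rose and 5 fell, with a median of -0.49. After upper-quartile scaling 1 rose and 6 fell, with a median of -0.64. Slc7a5, the light chain of a large neutral amino acid exchanger, had 9.81, 9.93 and 10.3 FPKM in the Control libraries and 19.8, 20.1 and 21.4 FPKM with MMK-1 (log2 fold change 0.96, limma adjusted p = 3.29e-07). Its heavy chain partner Slc3a2 fell by 0.49 on the log2 scale, and Slc7a8, another light chain, fell from 30.9 ± 0.67 to 8.33 ± 0.63 FPKM (log2 fold change -1.77, limma adjusted p = 3.03e-08). The aromatic amino acid transporter Slc16a10 had 34.2, 35.1 and 34.1 FPKM in the Control libraries and 12.0, 11.6 and 11.9 FPKM with MMK-1, with no overlap. Slc6a19, the main neutral amino acid carrier of the brush border, fell by 0.25 on the log2 scale, and Slc6a3, the dopamine transporter, fell from 3.46 to 0.326 FPKM, by 1.75 on that scale. The log2 fold change of Slc6a3 was -3.07 with a pseudocount of 0.1 and -3.41 with limma-voom on fragments.

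Among the genes of storage, Slc18a1 (NCBI gene 110877, GRCm38 chr8:69037711-69089235, minus strand) had 2.09, 1.82 and 1.86 FPKM in the Control libraries and 1.48, 1.51 and 1.37 FPKM with MMK-1, from 469 to 721 fragments a library. The groups did not overlap, although the gap between them was small beside those of Ddc, Slc6a4 and Maoa. The mean went from 1.92 ± 0.15 to 1.45 ± 0.07 FPKM (SD, n = 3 each), 1.32-fold lower, with a log2 fold change of -0.25 (SE 0.062, limma adjusted p = 0.00552). With a pseudocount of 0.1 in place of 1, the log2 fold change lay further from 0, within a range over all alternatives of -0.40 to -0.21. Slc18a1 overlaps Atp6v1b2, a subunit gene of the vacuolar proton pump on the opposite strand, and reads of the pair may not have been told apart. The ratio of Slc18a1 to Tph1 had a mean of 1.08 and a lowest value of 0.946 in the Control libraries, and was 0.707, 0.808 and 0.674 with MMK-1, without overlap (exact permutation p = 0.1, adjusted 0.114). Slc18a2, the other vesicular monoamine transporter, was counted at 16, 7 and 9 fragments in Control and at 9, 35 and 11 with MMK-1, under the level filter and with overlap. Tph2 was looked for by name and was not among the genes of the deposited values.

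Chgb (NCBI gene 12653, GRCm38 chr2:132781278-132795079, plus strand), a granin of the granule matrix, was the second most abundant of the 6. It had 111, 107 and 100.2 FPKM in the Control libraries and 125, 124 and 137 FPKM with MMK-1. Every MMK-1 library was higher, with MMK-1 replicate 3 the highest. The mean rose from 106 ± 5.49 to 129 ± 7.04 FPKM (SD, n = 3 each), 1.21-fold, with a log2 fold change of 0.28 (SE 0.054, limma adjusted p = 0.00161). This was 0.14 above the median of all genes tested. After upper-quartile scaling the log2 fold change was 0.12 and the call was lost (limma adjusted p = 0.0511), while after median-ratio scaling, also at 0.12, it was kept (limma adjusted p = 0.0459).

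The related granin Chga, the usual marker of enteroendocrine cells, had 42.1, 40.2 and 39.2 FPKM in the Control libraries and 42.0, 39.9 and 44.0 FPKM with MMK-1. The groups overlapped, and the log2 fold change was 0.05 (SE 0.050, limma adjusted p = 0.384), or -0.11 after either scaling, with the call absent in each case. The ratio of Chgb to Chga was 2.63, 2.67 and 2.56 in the Control libraries and 2.99, 3.11 and 3.11 with MMK-1 (exact permutation p = 0.1, adjusted 0.114). The groups stood apart in this ratio, which no scaling between libraries moves. The ratio of Tph1 to Chga overlapped between the groups, with means of 0.0441 and 0.0476 (exact permutation p = 0.4).

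Of 25 genes of granins, prohormone processing and dense-core granules, 13 were tested, and 6 rose and 2 fell with a median of 0.09. After upper-quartile scaling 3 rose and 3 fell with a median of -0.04. Scg2, another granin, rose to 5.68 ± 0.42 FPKM and Pcsk1, a prohormone convertase, to 3.44 ± 0.30 FPKM with MMK-1 (SD, n = 3 each), with log2 fold changes of 0.67 and 0.61. Cadps2, a factor of granule release, and Pam, the enzyme that amidates peptide hormones, fell by 0.24 and 0.21 on the log2 scale.

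Slc6a4 (NCBI gene 15567, GRCm38 chr11:76998603-77032340, plus strand), the transporter that clears released serotonin, had 24.0, 23.8 and 23.5 FPKM in the Control libraries. With MMK-1 it had 14.1, 13.9 and 14.6 FPKM. The spread within each group was narrow and the groups lay well apart. The mean fell from 23.8 ± 0.28 to 14.2 ± 0.40 FPKM (SD, n = 3 each), 1.67-fold lower, with a log2 fold change of -0.70 (SE 0.041, limma adjusted p = 1.03e-06). The antisense gene Gm12343 lies across its locus. The mean ratio of Slc6a4 to Tph1 was 13.4 in the Control libraries and 7.12 with MMK-1, without overlap (exact permutation p = 0.1, adjusted 0.114).

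Maoa (NCBI gene 17161, GRCm38 chrX:16619698-16687818, plus strand), which opens the breakdown of serotonin, was the most abundant of the 6 in both groups. It had 336, 323 and 327 FPKM in the Control libraries and 148, 150.1 and 144 FPKM with MMK-1, from 21919 to 52355 fragments a library. No MMK-1 library came near a Control library. The mean fell from 329 ± 6.50 to 148 ± 2.99 FPKM (SD, n = 3 each), 2.23-fold lower, with a log2 fold change of -1.15 (SE 0.037, limma adjusted p = 3.63e-08). This change lay at the 2.55th percentile of all genes tested, and that of Ddc at the 3.46th.

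Its neighbour and paralog Maob, monoamine oxidase B, had 107, 104 and 108 FPKM in the Control libraries and 36.9, 39.3 and 43.9 FPKM with MMK-1. The log2 fold change was -1.39 (SE 0.061, limma adjusted p = 1.89e-07), with no overlap. The ratio of Maoa to Maob was 3.12, 3.11 and 3.02 in the Control libraries and 4.02, 3.82 and 3.28 with MMK-1, so Maob was lower relative to Maoa in every MMK-1 library (exact permutation p = 0.1, adjusted 0.114).

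**Figure D2:**
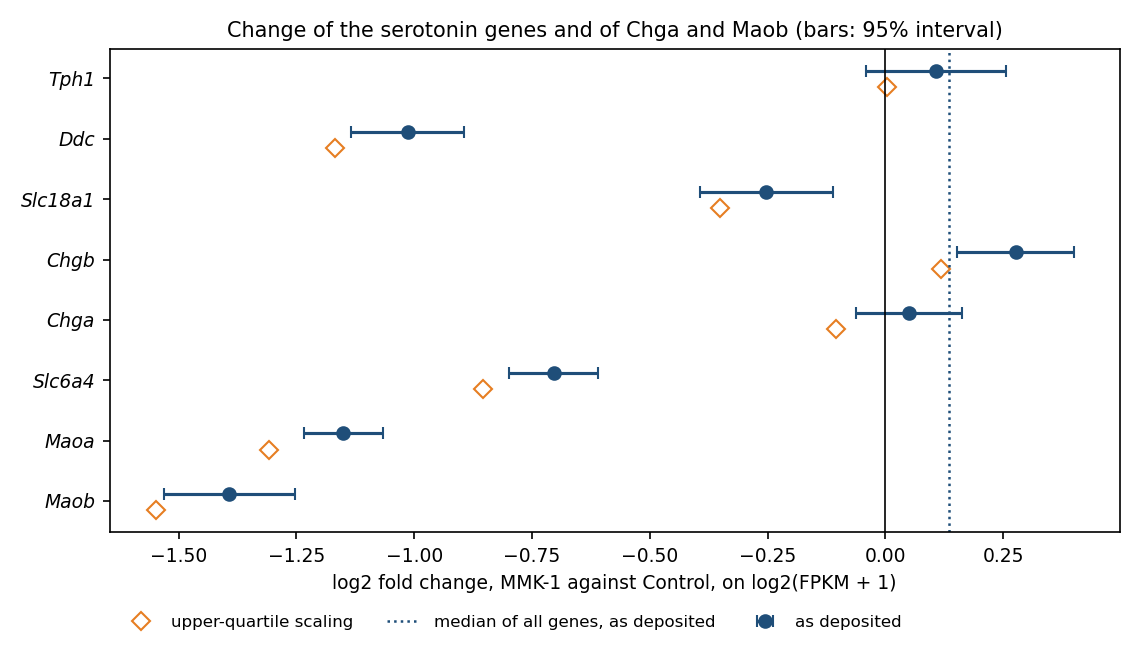
Log2 fold change on log2(FPKM + 1) of the 6 serotonin genes, Chga and Maob, MMK-1 against Control, as filled points with 95% intervals from limma and, as open diamonds, after upper-quartile scaling. Ddc, Slc18a1, Slc6a4, Maoa and Maob lie below 0 under both, Tph1 and Chga have intervals that include 0, and Chgb moves from 0.28 to 0.12.

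The aldehyde that monoamine oxidase leaves is oxidised by aldehyde dehydrogenases or reduced by aldo-keto reductases. Of 12 listed enzymes that act on serotonin or its aldehyde, 9 were tested, and 1 rose and 5 fell, with a median of -0.29. Aldh1a1 had 443, 428 and 434 FPKM in the Control libraries and 51.1, 52.4 and 54.6 FPKM with MMK-1, a log2 fold change of -3.02 (limma adjusted p = 4.91e-10). Aldh3a2 fell from 41.4 ± 0.81 to 22.2 ± 0.51 FPKM (SD, n = 3 each), by 0.87 on the log2 scale. Aldh2 fell by 0.48 on that scale, and the reductase Akr1a1 was not called, at -0.05, but was called lower after upper-quartile scaling (-0.21) and without MMK-1 replicate 3 (-0.10). With upper-quartile scaling 8 of the 9 were called lower, and 7 without that library. Tgm2, a transglutaminase that can couple serotonin to proteins, rose from 12.4 ± 0.74 to 16.1 ± 0.26 FPKM (SD, n = 3 each; log2 fold change 0.35, limma adjusted p = 0.000241). Aanat and Asmt, the enzymes that make melatonin from serotonin, had at most 2 fragments in any library.

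The other fate of tryptophan is the kynurenine route. Of 6 of its genes found, 2 were tested, and Kyat1, a kynurenine aminotransferase, fell from 19.2 ± 0.55 to 12.9 ± 0.52 FPKM (SD, n = 3 each; log2 fold change -0.54, limma adjusted p = 1.1e-05). After upper-quartile scaling the 2 tested genes were called lower. Kmo, under the level filter, lay lower without overlap, at 48, 32 and 48 fragments in Control and 9, 14 and 12 with MMK-1. The share of genes under the filter that lay lower was not computed. Ido1 and Ido2, which open the route outside the liver, had at most 1 fragment in any library. Of 8 serotonin receptor genes found, none passed the level filter. Htr6 was counted at 2, 6 and 1 fragments in Control and at 16, 19 and 28 with MMK-1, and Htr4 had 2, 2 and 0 against 6, 12 and 13. These 2 of the 8, at FPKM levels under the filter, stood higher with MMK-1 without overlap. So did 18.1% of the 10125 genes above 0 under the filter.

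**Figure D3:**
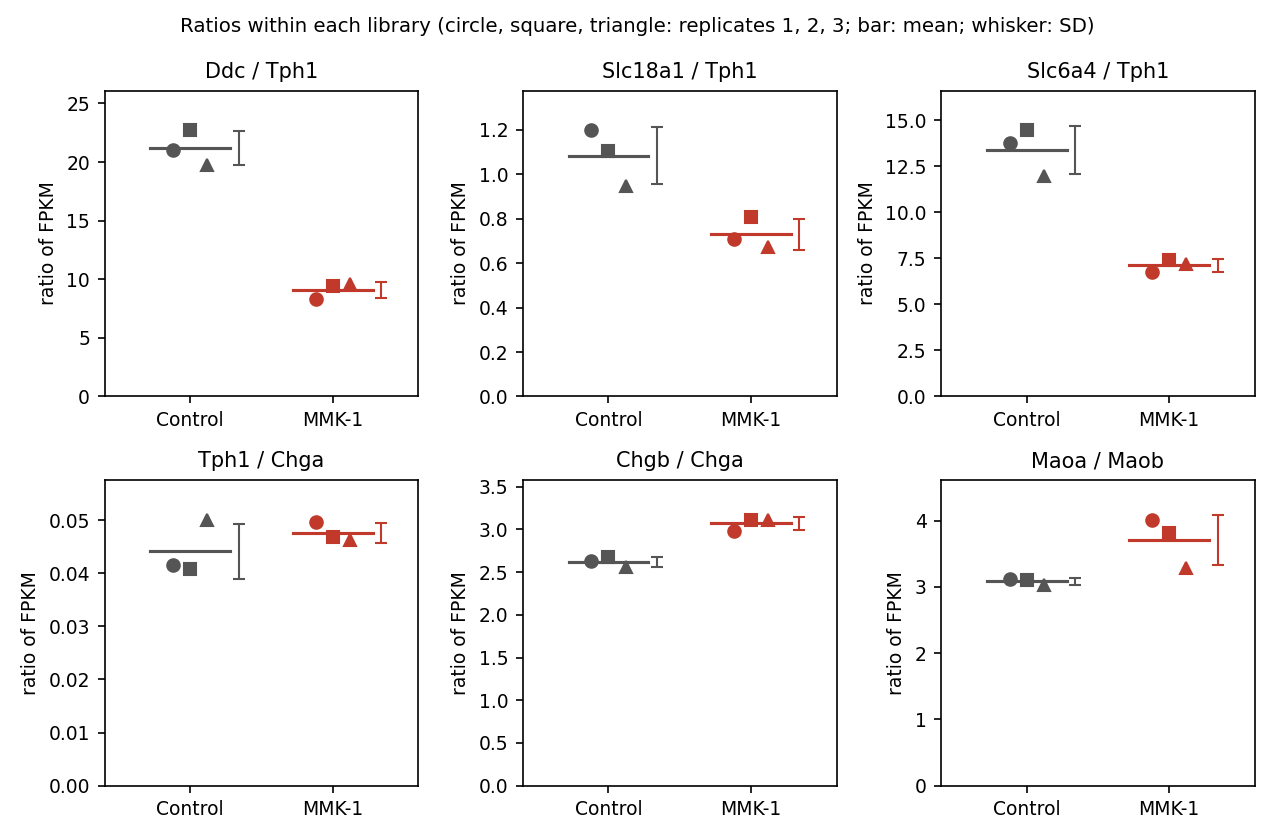
Ratios of FPKM within each library for 6 of the 8 pairs computed, Control in grey and MMK-1 in red, with the mean as a bar and the SD (n = 3) as a whisker, each axis from 0. The groups stand apart in every ratio shown other than Tph1 to Chga.

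Levels can be ordered within a group because FPKM is per length. In the Control libraries the order of mean FPKM was Maoa, Chgb, Ddc, Slc6a4, Slc18a1 and Tph1, and the last 2 overlapped. With MMK-1 the order was the same down to Slc6a4, and Tph1 then lay above Slc18a1 with no overlap. That last change of place rests on the gene lengths used. The FPKM steps of Slc18a1 imply a length of 9195 bases, while its exons in GENCODE vM21 cover 5401 bases. With the GENCODE lengths Slc18a1 lay at 3.27 ± 0.25 and 2.47 ± 0.12 FPKM and Tph1 at 1.46 ± 0.13 and 1.64 ± 0.10 FPKM (SD, n = 3 each), so Slc18a1 stayed above Tph1 in both groups. The lengths also differ for Ddc (2449 against 4461 bases) and Slc6a4 (2747 against 4531 bases), whose Control means were 20.7 and 14.4 FPKM with the GENCODE lengths. The order of the other 4 was unchanged, but levels, and the size of ratios between genes, depend on the lengths used. The ratio of the group means of a gene does not depend on that length, while its change on the log2(FPKM + 1) scale does.

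Without MMK-1 replicate 3, the library that stood apart, the log2 fold changes were 0.10 for Tph1, -1.06 for Ddc, -0.23 for Slc18a1, 0.23 for Chgb, -0.73 for Slc6a4 and -1.13 for Maoa. No call of the 6 changed without it, and the largest limma adjusted p of the 5 called genes was 0.0115, for Slc18a1.

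Markers of cell types were counted beside these genes. Of 18 listed enterocyte markers, 17 were tested, and 16 fell and 1 rose, with a median of -1.67. Ada, the 1 under the filter, lay higher without overlap, at 59, 42 and 41 fragments in Control and 175, 180 and 179 with MMK-1. Of all genes under the filter 18.1% lay higher in this way. Slc15a1, a brush border peptide transporter, fell from 50.2 to 3.73 FPKM and Anpep, an aminopeptidase, from 623 to 85.9 FPKM, while Fabp1, a fatty acid binding protein, was called higher at 0.17 and lost that call after upper-quartile scaling. The summed FPKM of the list ranged from 11700 to 11790 in the Control libraries and from 6100 to 6504 with MMK-1. Ddc, Slc6a4 and Maoa lay lower in the same libraries, and the part of these markers in that result was not tested. In such bulk samples fewer cells of a type and less RNA per cell cannot be told apart.

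Markers of the endocrine lineage were mostly higher. All 10 tested of 17 enteroendocrine transcription factors found were called higher, with a median of 0.73, among them Atoh1, whose groups overlapped and whose call was lost when every gene above 0 was tested (limma adjusted p = 0.0515). The list was led by Sox4 at 1.58 and Foxa2 at 1.01. Of 9 hormone genes tested, 8 were called higher and none lower, with a median of 0.59, led by Nts at 1.70 and Cck at 0.99, and 7 were higher and 1 lower after upper-quartile scaling. Of 13 enterochromaffin markers found, only Tac1 and Fev passed the level filter, and both are already counted above, Tac1 among the hormones and Fev among the factors. Tac1, which encodes the substance P precursor, had 11.1, 11.1 and 9.95 FPKM in the Control libraries and 18.6, 18.1 and 16.0 FPKM with MMK-1 (log2 fold change 0.66, limma adjusted p = 2.44e-05). Fev, a transcription factor of serotonin cells, had 1.04, 1.65 and 1.33 FPKM against 2.03, 2.14 and 2.23 FPKM (log2 fold change 0.43, limma adjusted p = 0.00277). The mean ratio of Tac1 to Tph1 was 6.05 in the Control libraries and 8.81 with MMK-1, without overlap. Of the 11 under the filter, 7 lay higher in every MMK-1 library, beside 18.1% of all genes under it, and none lay lower. Htr4 was among the 7, as was Adra2a with 18, 24 and 18 fragments against 145, 84 and 137.

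**Figure D4:**
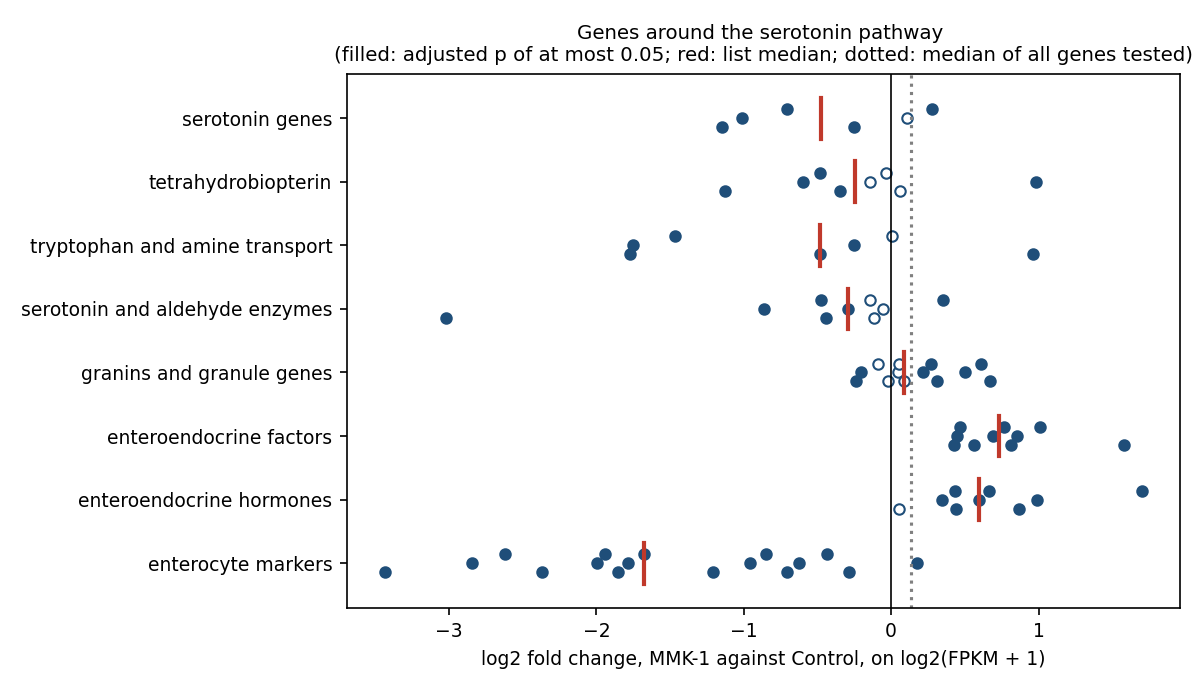
Log2 fold change on log2(FPKM + 1) of every tested gene in 8 lists, MMK-1 against Control, with calls as filled points, the median of each list as a red bar and the median of all genes tested, 0.13, as a dotted line. The medians of the serotonin genes, cofactor, transport, enzyme and enterocyte lists lie below 0, and those of the enteroendocrine factors and hormones lie at 0.73 and 0.59.

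Other cell types of the epithelium and cells from outside it were checked by their markers. All 9 tested stem cell markers rose, with Olfm4 at 5.02 and Lgr5 at 2.86. Of 9 Paneth cell markers 8 rose and 1 fell, with Itln1 at 2.54, Defa26 at 2.04 (3.41 with a pseudocount of 0.1) and Pnliprp2 at -0.18, which lost its call without Control replicate 1 or Control replicate 2 (limma adjusted p = 0.0567 and 0.0619). Of 10 goblet cell markers 7 rose and 2 fell, or 4 and 2 after upper-quartile scaling, with Spdef at 0.40, Zg16 at -1.63 and Muc2 at -0.35. Atoh1 stood at 0.47, with the limit given above. None of 10 tuft cell markers passed the filter, although 4 of them lay higher with MMK-1 without overlap and none lower, beside 18.1% of all genes under the filter that lay higher. Mast cells and platelets also carry serotonin. Of 6 mast cell markers found, only Kit passed the filter (0.62) and 4 had at most 3 fragments in every library, while Hdc had at most 5. Of the platelet genes Pf4 had at most 1 fragment and Itga2b 61 to 118, with overlap. The leukocyte gene Ptprc had at most 3 fragments and the neuronal gene Elavl4 at most 2. Of 11 leukocyte genes found 3 lay lower with MMK-1 without overlap and 1 higher, Laptm5, with at most 4 fragments. Cd68 and Itgam were called at -0.96 and -0.79, and Csf1r was counted at 20, 23 and 23 fragments in Control and at 0, 1 and 2 with MMK-1. Of 11 neuron and glia genes found 2 lay lower and 2 higher without overlap. The share of all genes under the filter that lay lower was not computed, so these counts of lower genes have no background here. Ret was called at -0.76, Tubb3 overlapped, with 11 to 23 fragments, and the 2 that lay higher, Uchl1 and Sox10, had at most 2 fragments. Of the fibroblast list Vim was called at -0.25, but its groups overlapped and the call was lost in 11 of 15 alternatives. Pdgfrb was counted at 264, 246 and 243 fragments in Control and at 51, 55 and 70 with MMK-1, while Col1a1 was higher with MMK-1, at 5, 7 and 4 against 8, 11 and 15.

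By the root-mean-square difference in log2(FPKM + 1) from the Control mean over the 6 libraries, the genes most like each serotonin gene were named. For Maoa these were Ugdh (0.0295) and Cobl (0.03), for Ddc Cx3cl1 (0.0185) and Aldh9a1 (0.0263), and for Slc6a4 Htatip2 (0.0133) and Gpx4 (0.0154). For Slc18a1 they were Oma1 (0.0091) and Fhad1 (0.0276), for Chgb Ptpn11 (0.0201) and Pip5k1a (0.0208), and for Tph1 Xrcc3 (0.0219) and Rheb (0.0263). Within 0.1 of the pattern lay 105 genes for Maoa, 138 for Ddc and 284 for Slc6a4, but 760 for Slc18a1, 1592 for Tph1 and 1620 for Chgb, so the patterns of the last 3 were common ones.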

How the data were processed

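RNA was sequenced from 6 organoid samples, 3 per group. The authors deposited FPKM values for 21397 genes with NCBI symbols and gene numbers. The submitters' processing notes name HISAT2, HTSeq, DESeq2, R 3.2.0 and mm10, and the annotation and the use of strand are not given in the sources used here. FPKM depends on the gene length chosen and on the library total, and no further scaling is stated. Columns of sample values were matched to samples by title.

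Every FPKM value was a whole number of fragments, within 0.1 fragment, times a step set by gene and library, and fragments and totals were computed from this. Counting error is the only error they cover, and a count of 0 allows up to 3 fragments. Tests used limma 3.58.1 (eBayes with trend) in R 4.3.3 on log2(FPKM + 1), over genes whose mean FPKM was 1 or more, with no block, all 6 samples and Benjamini-Hochberg adjustment over all genes tested. Permutation tests were exact and two-sided. The rest used scipy 1.17.1, numpy 2.4.6, matplotlib 3.10.9 and pandas 2.3.3 under Python 3.11.15. The fit and the recovery of fragments were tested on simulated data.

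The 6 genes and the 20 lists around them were chosen with earlier results of these data known, and no list was tested as a set. Genes named were the 6, their paralogs, in each list the 2 called genes that changed most in each direction, for cell types outside the epithelium the 2 most abundant and the defining genes, and the 2 nearest by pattern, and further listed genes were named after their values were seen. Coordinates are those of GENCODE vM21 (GRCm38), which may not be the authors' annotation. Alternatives covered the filter, the pseudocount, the scaling, TPM, limma-voom on fragments, a replicate block and leaving out each library.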

Additional observations from a re-analysis of the deposited data

How the results depend on the processing

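Over 15 alternatives, the direction of each of the 6 serotonin genes and its side of the adjusted p threshold were kept, except that Chgb lost its call after upper-quartile scaling (0.12, limma adjusted p = 0.0511). Chga, not called in any of them, turned to -0.11 after upper-quartile and after median-ratio scaling. Under the same scalings Spr was called lower at -0.0936 and -0.0934. Leaving out 1 library at a time gave log2 fold changes of 0.07 to 0.15 for Tph1, -1.06 to -0.98 for Ddc, -0.28 to -0.21 for Slc18a1, 0.23 to 0.31 for Chgb, -0.73 to -0.69 for Slc6a4 and -1.16 to -1.13 for Maoa. The 358 genes higher at a fold change of at least 2 became 676 with a pseudocount of 0.1, 1097 with every gene above 0 and that pseudocount, 225 after either scaling, 558 in TPM and 727 with limma-voom. The 385 lower became 818 with every gene above 0 and a pseudocount of 0.1. Of calls by adjusted p alone, the 2606 lower became 3916 after median-ratio scaling. Leaving out 1 library gave 336 to 434 higher and 369 to 393 lower at 2-fold.

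Same-numbered libraries of the groups did not deviate together, with correlations of 0.025, -0.04 and 0.028, so the numbers were not taken as pairs. With a replicate block, 5024 genes were called higher and 2543 lower, and the log2 fold change of Tph1 stayed 0.11 (limma adjusted p = 0.175). The block changed no call of the 6, and of the calls recomputed for other named genes it ended that of Vim alone (limma adjusted p = 0.0563). The cause of these shifts was not tested. Tph1 and Slc18a1, with 312 to 721 fragments a library, have the widest relative counting error of the 6.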
